A study of Homo sapiens with 19 samples.

Results

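The 46 genes described here encode members of the nuclear receptor superfamily, and they are 46 of the 23441 gene symbols counted by RNA-seq in 786-O cells. They were taken as a family list, but the family was chosen on measured values of one of its members: RORA was picked out by its rise after re-expression of HIF-1α in these same libraries. The values of RORA in HIF-1α re-expressing against control cells are therefore given as a description only. The comparison of RORA between HIF-1α and HIF-2α cells uses the same HIF-1α libraries and has the same standing.

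786-O cells are an established human clear cell renal carcinoma line. Their VHL protein is defective, their own HIF-1α transcripts are truncated, and HIF-2α is stable in them without hypoxia. Pools of these cells were infected with the empty lentiviral vector pRRL (control cells), with pRRL-HIF-1α (HIF-1α re-expressing cells) or with pRRL-HIF-2α (HIF-2α overexpressing cells), so all groups share the VHL defect and the vector, which also carries EGFP. RNA was measured in 3 libraries per pool, and ChIP-seq with antisera to the 3 HIF subunits gave 7 peak lists, each from 1 library. Each pool is a mixed infected population, so in these bulk libraries fewer expressing cells and less RNA per cell cannot be told apart.

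Nuclear receptors are transcription factors with a zinc-finger DNA-binding domain and a domain that binds small lipophilic ligands such as steroids, thyroid hormone, retinoids, bile acids and oxysterols. Many bind DNA as partners of the retinoid X receptors, whereas steroid receptors act mostly as homodimers, and ligand binding exchanges corepressors for coactivators. Several members are orphans without an established ligand. HNF4α, PPARα, FXR (NR1H4) and the vitamin D receptor are known for their roles in the renal proximal tubule, from which clear cell carcinoma is thought to arise. RORα and the REV-ERB receptors compete for the same response elements in the circadian clock, RORα as an activator and REV-ERB as a repressor.

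The libraries held between 27852754 and 54287621 counts, of which the 46 genes took between 0.0889% and 0.136%. HIF1A, the gene of the re-expressed subunit, stood at 172, 1682 and 473 CPM in HIF-1α replicates 1, 2 and 3, at 30.4, 36.7 and 152 CPM in control and at 15.3, 30.4 and 17.5 CPM in HIF-2α libraries, so control replicate 3 lay close to HIF-1α replicate 1. CPM is the count of a gene per 1000000 counts of its library, scaled with TMM factors. EPAS1, the gene of HIF-2α, stood at 946, 3244 and 880 CPM in cells given HIF-2α between 162 and 456 CPM in the control cells and at 575, 627 and 397 CPM in HIF-1α replicates 1 to 3. Of the renal markers PAX8, PAX2, KRT8, KRT18, VIM and CDH2 all 6 were counted in every library, with PAX8 between 176 and 364 CPM. KRT18 fell by 0.86 (log2) after HIF-1α re-expression in the fit with the replicate block (edgeR, adjusted p = 0.0405), and its part in the results below was not tested. Markers of blood and endothelial cells were at or near 0: CD3E had no count, CDH5 3 and PTPRC 8 in all libraries together, and PECAM1 reached 0.838 CPM at most.

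The windows below show the bases around the HIF core at the peaks described later, as a selection of 5 places inside a nuclear receptor gene where a called peak and a core motif lie together. Cores also lay near peak midpoints at other receptors, among them THRB, RXRA, NR3C1, NR1D2 and NR6A1, which are not shown. All are from GRCh37, on the plus strand, 101 bases long, with each match to ACGTG or GCGTG (on either strand, so CACGT and CACGC also count, and CACGTG is ACGTG overlapping its own reverse complement) in capitals.
RORA intron, chr15:60884435-60884535: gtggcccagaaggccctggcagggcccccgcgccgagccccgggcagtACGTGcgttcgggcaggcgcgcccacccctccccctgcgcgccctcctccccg
RARA intron, chr17:38469780-38469880: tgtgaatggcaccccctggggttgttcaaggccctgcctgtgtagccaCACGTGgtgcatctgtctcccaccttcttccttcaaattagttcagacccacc
NR4A2 intron, chr2:157190878-157190978: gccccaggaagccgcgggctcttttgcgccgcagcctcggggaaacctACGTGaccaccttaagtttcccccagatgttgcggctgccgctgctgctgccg
NR1D1 intron, chr17:38256144-38256244: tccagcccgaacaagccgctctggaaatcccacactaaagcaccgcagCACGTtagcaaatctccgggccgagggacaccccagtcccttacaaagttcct
NR2E3 intron, chr15:72099082-72099182: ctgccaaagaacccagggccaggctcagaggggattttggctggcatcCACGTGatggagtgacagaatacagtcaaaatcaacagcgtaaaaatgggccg
The RORA window lay under the HIF-1α and HIF-1β peaks of HIF-1α re-expressing cells and under no other list. The RARA window with its palindromic CACGTG lay under 6 of the 7 lists and the NR4A2 window under 5. The NR1D1 window lay under 3 lists and the NR2E3 window under the HIF-1α list alone. Under means anywhere inside a peak window of 2500 bp, not at its midpoint. The printed RARA core was within 150 bp of the midpoint in the HIF-2α lists only, and the RORA core in the HIF-1α list only. The NR4A2 core was so in all its lists but HIF-1β of control cells. A match is a description of the letters and not a shown binding site. Of all peaks, a core within 150 bp of the midpoint was present in 65.6% of the 5147 HIF-1α peaks, 59.8% of the 1719 HIF-2α peaks of control cells and 45.8% of the 5283 HIF-2α peaks of overexpressing cells, against 37.7%, 32.4% and 31.2% of windows 2 kb away. The peaks near nuclear receptor genes held a core in 12 of 18, 1 of 1 and 7 of 11 cases. In the HIF-1β list of HIF-1α re-expressing cells they did so in 9 of 23 cases, beside 68.3% of all peaks, and the difference was not tested. In the other lists they did so in 9 of 15 (HIF-1β in control cells, 57.3% of all peaks), 9 of 13 (HIF-1β in HIF-2α cells, 66.1%) and 2 of 2 cases (HIF-2α in HIF-1α cells, 64.7%).

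Levels of the receptors are compared per kilobase of exon (CPM divided by the length of all annotated exons, GENCODE on GRCh37). The most abundant were NR2F2, which encodes COUP-TFII, at 24.9 CPM per kb over the 9 libraries and NR2F6 at 21.8. Both are orphan receptors of the COUP group, of which NR2F1 stood at 0.315 CPM per kb. NR3C1, the glucocorticoid receptor, followed at 19.1, then RARA at 11.6, RXRB at 10.7, ESRRA at 9.85, NR1H2 (LXRβ) at 9.81, RXRA at 8.88, NR1D2 at 8.6 and NR1D1 at 8.43 CPM per kb. Adjacent genes in this order had overlapping ranges over the libraries, for example 16.6 to 30.7 for NR2F2 and 17.6 to 31.5 for NR2F6. The obligate partners RXRA and RXRB were thus among the 10 highest, whereas the third partner RXRG had a single read in all libraries.

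Of the 46 genes 31 were tested and 15 had too few reads. Those not tested were RARB, RXRG, RORB, NR1I2 (PXR), NR1I3 (CAR), HNF4A, NR2E1, NR2E3, ESR1, ESR2, ESRRB, PGR, NR5A1, NR5A2 and NR0B2 (SHP). PGR, the progesterone receptor, had 0 counts in 355968061, which allows up to 0.00843 CPM, and HNF4A had 19 counts in 4 of 9 libraries. The other 13 untested genes had between 1 and 71 counts in all, and 31 of the 52 counts of NR5A2 were in HIF-1α replicate 2. HNF4G stood at 3.04 CPM per kb and PPARA at 4.1, while NR1H4 and VDR stood at 0.953 and 0.573 CPM per kb. RORA passed the filter through the HIF-1α libraries alone, since none of the other 6 libraries had 10 reads of it, so a count over the tested genes is not independent of the re-expression. NR0B1 reached the filter's level in 3 HIF-1α, 2 control and 0 HIF-2α libraries, where 3 libraries are needed, so it too was tested through the HIF-1α libraries.

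**Figure D1:**
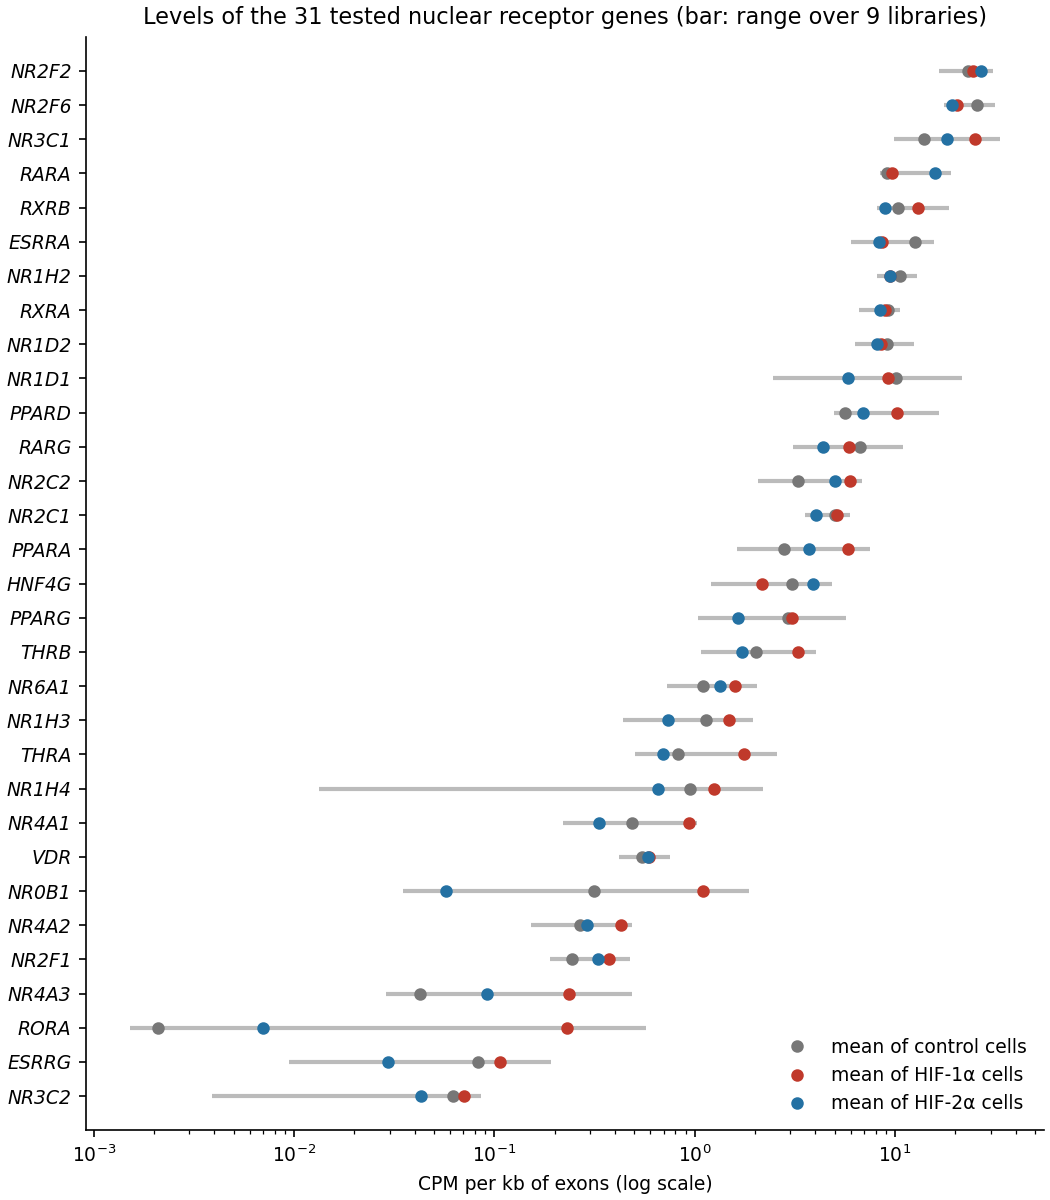
Mean level of each tested nuclear receptor gene in CPM per kb of exon on a log scale, for control, HIF-1α re-expressing and HIF-2α overexpressing cells (points), with the range over the 9 libraries as a grey bar. The order runs from NR2F2 at 24.9 CPM per kb to NR3C2 at 0.0586, and the widest bars belong to RORA, NR1H4 and NR0B1.

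RORA, the gene of the receptor RORα, was close to silent in control cells and had its reads in the HIF-1α re-expressing cells. Its raw counts were 1, 1 and 2 in control replicates 1 to 3, 26, 384 and 79 in HIF-1α libraries and 5, 6 and 1 in HIF-2α libraries. On the CPM scale the HIF-1α libraries stood at 0.637, 9.72 and 1.47 and the control libraries between 0.0259 and 0.0521. All 3 HIF-1α libraries lay above all 6 others, and replicate 2 held most of the reads. The pooled counts of 489 and 4 gave a ratio of 102 between HIF-1α and control cells, with an exact 95% interval of 39.7 to 377 that covers counting error only, and a ratio of 33.2 against HIF-2α cells (18.8 to 64.7). Its highest level, 0.571 CPM per kb, was below the means of the 24 most abundant receptors. The order of the 3 HIF-1α libraries in RORA was the order of their HIF1A levels, with replicate 2 highest in both. With 3 libraries, on which RORA was chosen, this is a description only, and a link between the levels was not tested. Control replicate 3, at 152 CPM of HIF1A, had 2 reads of RORA, and HIF-1α replicate 1, at 172 CPM, had 26. The truncated endogenous HIF1A transcripts and the viral cDNA are not separated in these counts.

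**Figure D2:**
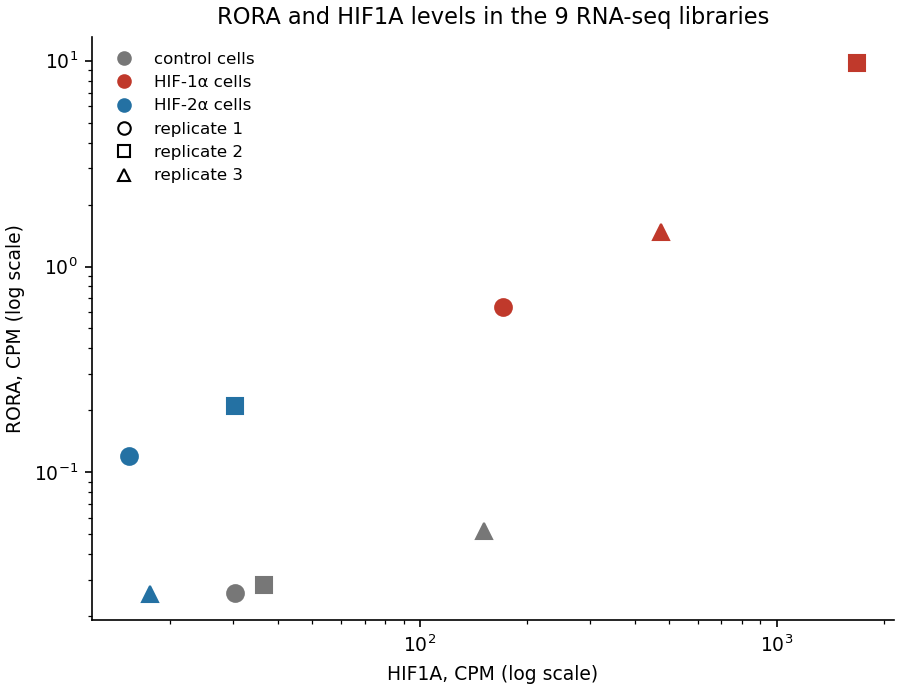
RORA against HIF1A, both in CPM on log scales, with 1 point per RNA-seq library coloured by pool and shaped by replicate number. The 3 HIF-1α points run from 0.637 to 9.72 CPM of RORA, above all control and HIF-2α points.

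The gene RORA lies on chromosome 15 at 60780483 to 61521501, minus strand (GRCh37). A HIF-1α peak at chr15:60883155-60885654 and a HIF-1β peak at chr15:60883035-60885534, each a window of 2500 bp, were called in HIF-1α re-expressing cells. Their midpoints lay 0.312 and 0.432 kb downstream of an internal start site at 60884716, inside an intron of the longer transcripts. No list of control or HIF-2α overexpressing cells held a peak within 10 kb of any of the 14 annotated RORA starts. The ACGTG printed above lies 81 bp from the midpoint of the HIF-1α peak.

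With the pool as the only term, edgeR called none of the 31 genes in any comparison (Benjamini-Hochberg adjusted p, threshold 0.05), and the share of all 14225 genes called was 0% for HIF-1α against control cells, 0% for HIF-2α against control cells and 0.0492% for HIF-1α against HIF-2α cells. At an unadjusted p under 0.05 the same fit had 9 higher and 0 lower receptors after HIF-1α re-expression, 1 and 2 after HIF-2α overexpression and 7 and 1 in HIF-1α against HIF-2α cells. Of all 14225 genes 1586 were higher and 1171 lower at that level in the first comparison, 476 and 362 in the second and 1286 and 655 in the third. Libraries with the same replicate number deviated together, and with that number as a block edgeR called 3 receptors higher and 0 lower after HIF-1α re-expression (7.96% of all genes called, in either direction), 0 after HIF-2α overexpression (0.267%) and 4 higher and 0 lower in HIF-1α against HIF-2α cells (5.93%). The 3 were RORA, NR0B1 and NR2C2, and the 4 were RORA, NR0B1, NR4A1 and PPARG. For RORA, chosen on these libraries, the call is no independent test. For a set of 31 the 3 calls are a share near that of all genes, so they are no result about the family as a whole. DESeq2, which tested 31 to 35 of the receptors, called 1 (RORA, 5.25% of genes), 0 (0.412%) and 4 (4.43%) in the 3 comparisons without the block, and 9 (21.6%), 1 (3.39%) and 8 (12.2%) with it. Both comparisons with control cells use the same 3 control libraries.  The labels do not say that the libraries are separate cultures, so the p-values measure the spread between these libraries only.

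**Figure D3:**
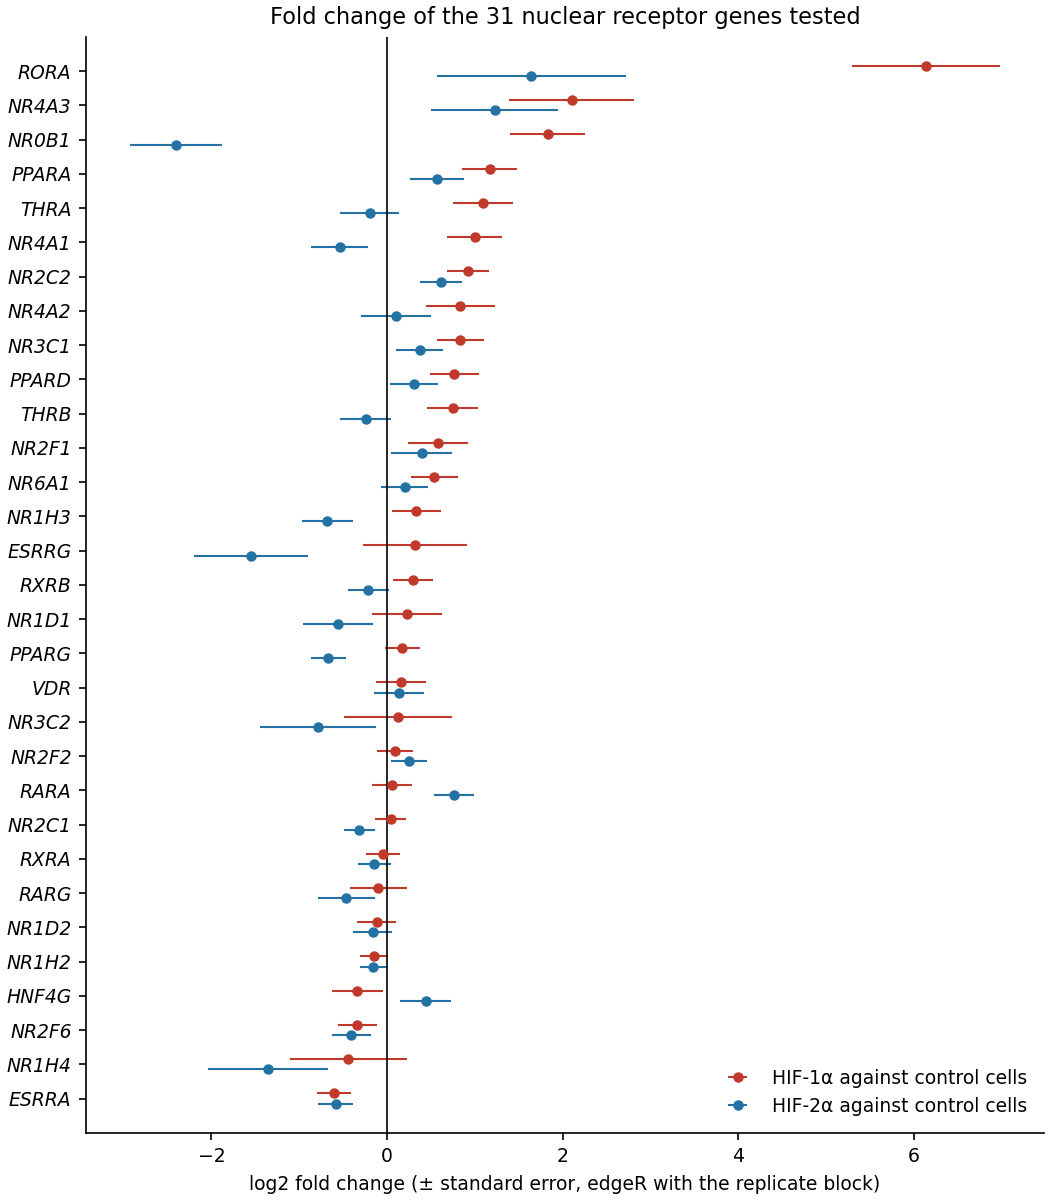
Log2 fold change of the 31 tested nuclear receptor genes in HIF-1α and in HIF-2α cells against the shared control cells, with standard errors, from edgeR with the replicate block. RORA at 6.14 and NR0B1 at 1.83 and -2.41 stand apart, and most other points lie between -1 and 1.

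NR0B1 encodes DAX-1, an orphan receptor that lacks the usual DNA-binding domain and represses other receptors, best known from adrenal and gonadal development. Its levels were 3.73, 1.16 and 1.73 CPM in HIF-1α replicates 1 to 3, 0.647, 0.228 and 1.02 CPM in control cells and 0.144, 0.0698 and 0.129 CPM in HIF-2α overexpressing cells. The 3 pools did not overlap, with HIF-1α cells highest and HIF-2α cells lowest in every replicate number. In HIF-1α against HIF-2α cells the log2 fold change was 4.23 with the block (standard error 0.51, edgeR adjusted p = 0.00371) and 4.21 without it (adjusted p = 0.0601). Without the filter on low counts, through which the HIF-1α libraries brought it into the test, it was 4.19 (edgeR without the block, adjusted p = 0.0365). Against control cells it was 1.83 after HIF-1α re-expression (edgeR with the block, adjusted p = 0.0424) and -2.41 after HIF-2α overexpression (adjusted p = 0.117). The difference between HIF-1α and HIF-2α cells kept its call with the block when any 1 of the 9 libraries was left out. The rise over control cells did not: it was lost without any 1 library of the 9. The counts behind these values are small, 46 to 152 in the HIF-1α and 2 to 6 in the HIF-2α libraries, and no peak of any list lay within 50 kb of either NR0B1 start on chromosome X.

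NR4A1 (NUR77), NR4A2 (NURR1) and NR4A3 (NOR1) are immediate-early orphan receptors, induced by growth factors and stress. NR4A1 stood at 5.83, 7.49 and 7.26 CPM in HIF-1α cells, at 2.95, 2.33 and 5.37 CPM in control cells and at 1.61, 2.9 and 2.75 CPM in HIF-2α cells. HIF-1α libraries lay above all others, and the log2 fold change against HIF-2α cells was 1.54 (standard error 0.32, edgeR with the block, adjusted p = 0.027) and 1.5 without the block (adjusted p = 0.138). That call was lost without HIF-1α replicate 1 or 2 and without HIF-2α replicate 1 or 3. Reads of NR4A1 and of its antisense partner NR4A1AS, which shares 10.3% of its exon bases, cannot be told apart here, because the strand setting of the counting is not given in the sources used here. NR4A2 had 1.67 to 1.82 CPM in HIF-1α, 0.625 to 1.79 in control and 0.674 to 1.99 in HIF-2α libraries, so the pools overlapped. NR4A3 had counts of 49, 121 and 10 in HIF-1α cells against 14, 9 and 7 in control cells, and replicate 3 of the HIF-1α cells was within the control range on the CPM scale (0.186 against 0.182 to 0.362). Its log2 fold change of 2.45 after HIF-1α re-expression had an edgeR adjusted p of 0.19, and 0.0861 with the block.

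NR4A2 and NR4A3 were both close to peaks of HIF subunits, whereas the nearest NR4A1 peak lay outside 10 kb. At NR4A2 the midpoints of the HIF-1α, HIF-1β and HIF-2α peaks lay 1.6 to 1.69 kb upstream of an internal start in HIF-1α and HIF-2α cells, and within 52 bp of the ACGTG printed above. In control cells a HIF-1β peak stood 1.3 kb upstream of the same start. At NR4A3 a HIF-1α peak lay 0.48 kb inside the gene, the HIF-1β peak of HIF-1α cells 1.09 kb upstream of it, and HIF-1β and HIF-2α peaks of HIF-2α overexpressing cells 1.8 and 2.44 kb upstream. These upstream peaks were nearer to a start of another annotated gene, at 0.84, 0.133 and 0.478 kb.

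NR2C2 (TR4), an orphan of the testicular receptor pair, stood at 72.9, 66 and 71.7 CPM in HIF-1α cells against 43.4, 48.9 and 24.3 CPM in control cells. The pools did not overlap, and the log2 fold change was 0.92 (standard error 0.24, edgeR with the block, adjusted p = 0.0493) and 0.85 without the block (adjusted p = 0.194). The call lay just inside the threshold, and without any 1 of 8 libraries, all but control replicate 1, it was lost. Of the exon bases of NR2C2, 61.9% are also exons of genes on the opposite strand, among them MRPS25 and FGD5-AS1. MRPS25 stood at 31.7 ± 3.81 CPM in HIF-1α and 34 ± 6.1 CPM in control cells (SD, n = 3). The levels of the other overlapping genes, FGD5-AS1 among them, are not given here. The part of opposite-strand reads in the NR2C2 counts was not tested. A HIF-1β peak of HIF-1α cells lay 0.036 kb from an NR2C2 start, and 0.001 kb from a start of FGD5-AS1. Its paralogue NR2C1 (TR2) differed little, with a log2 fold change of 0.04 (standard error 0.21).

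PPARG (PPARγ), the receptor of adipogenesis, varied more between replicate numbers than between pools. It stood at 65.1, 18.8 and 25.9 CPM in HIF-1α cells, at 68.6, 18.3 and 17.7 CPM in control cells and at 33.1, 13.4 and 12.5 CPM in HIF-2α cells. Replicate 1 was the highest library of each pool, and 79.1% of the variance of log2 CPM lay between numbers and 17.7% between pools. Its log2 fold change in HIF-1α against HIF-2α cells was 0.84 (standard error 0.2, edgeR with the block, adjusted p = 0.043) and 0.9 without the block (standard error 0.65, adjusted p = 0.575). With the block, the call held only without control replicate 1 among the 9 fits that left out a library. PPARA (PPARα), which drives fatty acid oxidation, had 99.3, 47.5 and 83.4 CPM in HIF-1α cells against 64.9, 24.7 and 21.5 CPM in control cells, higher in all 3 pairs. Its log2 fold change of 1.17 missed the threshold with the block (edgeR, adjusted p = 0.051). PPARD had 73.8 CPM in HIF-1α replicate 3 and 30.8 to 31.6 CPM in the other HIF-1α libraries, against 22 to 27.4 CPM in control cells.

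**Figure D4:**
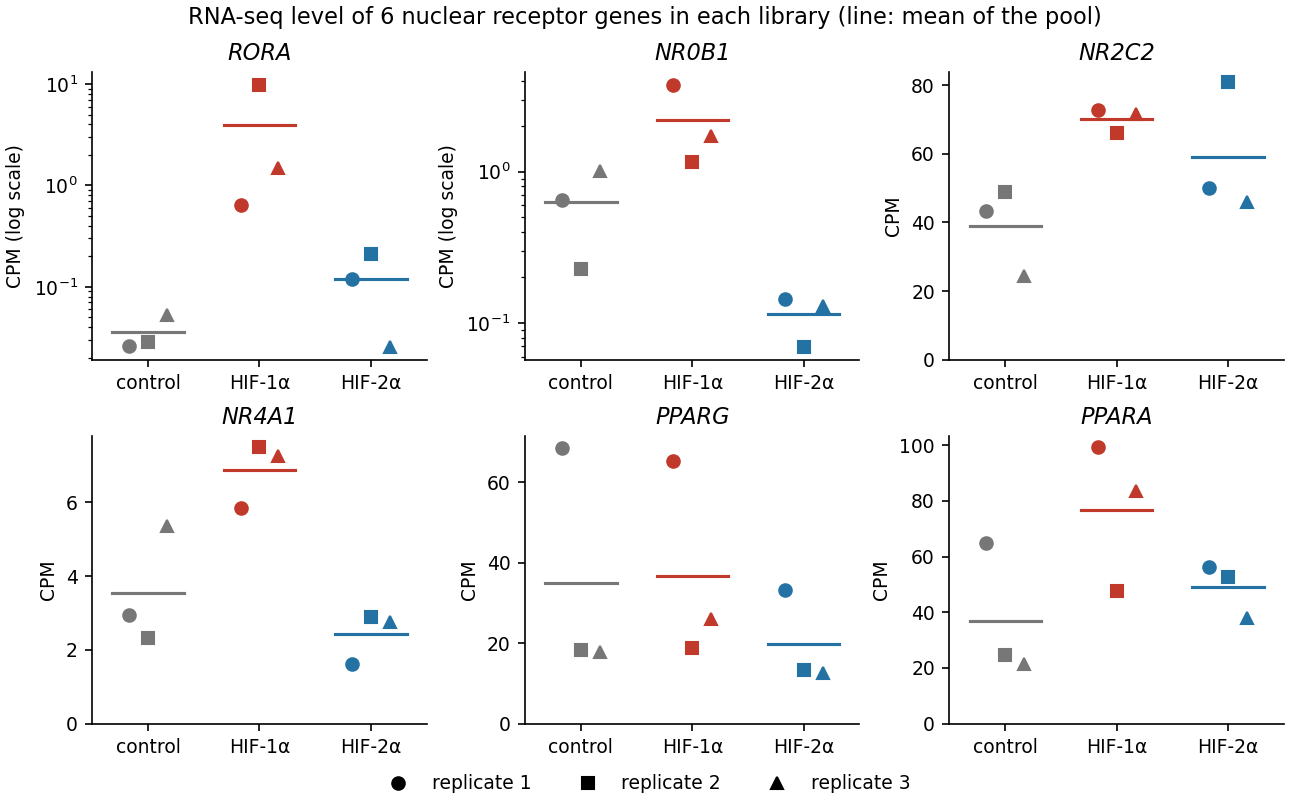
CPM in each of the 9 RNA-seq libraries for the 5 receptors called by edgeR with the replicate block and for PPARA, which narrowly missed the threshold, with symbols for the replicate number and lines for the pool means (RORA and NR0B1 on log axes). PPARG and PPARA show replicate 1 above the others in control cells, at 68.6 and 64.9 CPM.

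Over the 31 tested genes the fraction of variance between replicate numbers had a median of 30.3%, against 35.8% over all 14225 genes, and that between pools had medians of 39.9% and 32.6%. In 15 of the 31 more variance lay between numbers than between pools. NR1H4 (FXR), the bile acid receptor, had counts of 40, 5 and 2 in the replicate 1 libraries of control, HIF-1α and HIF-2α cells and of 78 to 426 in the other 6 libraries. NR1D1 (REV-ERBα) stood at 56.6 CPM in control replicate 1 and at 11.2 and 12.4 CPM in control replicates 2 and 3, and VDR was also highest with number 1. For these receptors differences between replicate numbers exceeded those between pools: 87.5% and 5.7% of the variance for NR1H4, 60.2% and 14.8% for NR1D1.

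Among the thyroid hormone and retinoid receptors none was called by edgeR. THRA stood at 9.85, 10 and 18.8 CPM in HIF-1α, 7.09, 4.18 and 6.9 in control and 6.24, 5.41 and 3.67 in HIF-2α libraries. HIF-1α libraries were higher than all others, at a log2 fold change of 1.34 against HIF-2α cells (edgeR adjusted p = 0.16, and 0.0608 with the block), which DESeq2 called without the block. THRA and NR1D1 overlap with their ends on opposite strands of chromosome 17, sharing 473 exon bases. RARA was the one receptor of the comparison with all HIF-2α libraries above both other pools: 49.9, 90.7 and 85.6 CPM, against 49.2, 39.8 and 41.4 CPM in control and 42.2, 45.8 and 48.8 CPM in HIF-1α cells. Replicate 1 of the HIF-2α cells exceeded the highest control library by less than 1 CPM. The log2 fold change of 0.8 over control cells had an edgeR adjusted p of 0.73, and 0.219 with the block. In HIF-1α against HIF-2α cells RARA was at -0.73 (edgeR adjusted p = 0.23, and 0.105 with the block). DESeq2 called that RARA difference with the block (adjusted p = 0.0412) and not without it (0.116). RXRA differed little between pools, with log2 fold changes of -0.04 and -0.12 against control cells (standard errors 0.21).

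RARA was also the single receptor with a HIF-2α peak within 10 kb of a start in control cells. Farther from a start, such peaks lay inside RXRA (19.2 and 48.7 kb) and NR6A1 (26 kb). The midpoint of the RARA peak lay 4.26 kb downstream of a start, within an intron. The RARA HIF-2α peaks of HIF-1α re-expressing and of HIF-2α overexpressing cells lay at 4.33 and 4.28 kb. The palindrome printed above stood 124 bp from the midpoint in control cells, and 60 and 107 bp from it in the others. A further HIF-2α peak of overexpressing cells lay 9.05 kb upstream of another RARA start.

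Of the steroid and estrogen-related receptors, NR3C1 stood at 183, 201 and 307 CPM in HIF-1α, at 133, 162 and 90 in control and at 143, 182 and 177 in HIF-2α libraries. The HIF-1α libraries exceeded all others, the highest HIF-2α library by less than 1 CPM, and the log2 fold change over control cells was 0.84 (standard error 0.28, edgeR adjusted p = 0.189, and 0.0764 with the block). ESRRA, the receptor of mitochondrial genes, was below its control partner in every pair in both HIF-1α and HIF-2α cells, with log2 fold changes of -0.56 and -0.6 (edgeR adjusted p of 0.343 and 0.842, and 0.0763 and 0.245 with the block). ESRRG had 26 to 112 counts in HIF-1α, 32 to 37 in control and 4 to 17 in HIF-2α libraries. The liver X receptors differed from one another: NR1H2 had log2 fold changes of -0.17 in both pools, and NR1H3 of 0.38 and -0.62, none of them called by edgeR.

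All 3 libraries of one pool lay above or below all 3 of the other for 8 receptors higher and 0 lower after HIF-1α re-expression, where 12.9% and 11.2% of all genes did so. The 8 were THRA, THRB, PPARD, RORA, NR2C2, NR3C1, NR4A1 and NR0B1. After HIF-2α overexpression 3 were higher (RARA, PPARD and NR4A3) and 5 lower (RXRB, NR2C1, ESRRA, ESRRG and NR0B1), where 6.0% and 5.19% of genes were. Between HIF-1α and HIF-2α cells 9 were higher and 2 lower (RARA and HNF4G), where 10.4% and 8.82% of genes were. Fold changes above 0 were found for 23 of 31 receptors in HIF-1α against control cells, for 13 in HIF-2α against control cells and for 28 in HIF-1α against HIF-2α cells, against 52.4%, 47.5% and 51.9% of all genes. The median log2 fold changes of the receptors were 0.36, -0.17 and 0.55, and those of all genes 0.04, -0.02 and 0.02. Without RORA the 3 medians of the receptors were 0.34, -0.2 and 0.5. With another scaling, filter or tool the number above 0 was 23 in HIF-1α against control cells and 25 to 28 in HIF-1α against HIF-2α cells, though not of the same receptors: with the block NR1H4 went from 0.4 to -0.44 and NR1D1 from -0.13 to 0.23 against control cells. When 1 library was left out the numbers were 18 to 25 and 24 to 28. The medians rested in part on single libraries. Without HIF-1α replicate 3 they were 0.13 against control and 0.27 against HIF-2α cells (0.04 and 0.19 with the block), and without HIF-2α replicate 1 the latter was 0.33. The median in HIF-2α against control cells was -0.01 without HIF-2α replicate 3, -0.04 without control replicate 1, -0.1 without control replicate 2 and -0.3 without HIF-2α replicate 2.

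Within 10 kb of a start site, 23 of the 46 genes had a peak of at least 1 list, 21 of them among the 31 tested, where 55.0% of all 13759 tested and placed genes did. With 1 start per gene, 16 of the 31 did, beside 48.6% of all genes. A HIF-1α peak was near 15 of the 31 (34.6% of all genes) and near NR2E3, which was not tested. A HIF-1β peak was near 12 of the 31 in control cells (25.7%), near 20 in HIF-1α re-expressing cells (40.8%) and near 11 in HIF-2α overexpressing cells (16.2%). A HIF-2α peak was near 1 of the 31 in control cells (5.33%), near RARA and RXRA in HIF-1α re-expressing cells (4.22%), and near 9 in HIF-2α overexpressing cells (14.5%), besides RARB, which was not tested. With 1 library per list no p-value can be given for these counts, and the lists do not give the libraries' depth. NR2C2, PPARA and RARG had a HIF-1β peak in HIF-1α re-expressing cells and no other peak. NR1D1 had HIF-1β peaks in control and HIF-2α cells and a HIF-1α peak, 0.53 to 0.638 kb inside the gene. At NR3C1, RXRA, HNF4G, NR4A2, RARA, THRB, NR2C1, NR1D1 and NR6A1 peaks were called in all 3 pools. The HIF-1α peaks of THRB and NR2C1 lay 0.026 and 0.151 kb from a start. NR6A1, an orphan of germ cells, had HIF-1β peaks in control and HIF-1α cells, a HIF-1α peak and a HIF-2α peak of overexpressing cells, the nearest of each list within 0.526 kb of a start. NR1D2 (REV-ERBβ) had HIF-1β peaks in control and HIF-1α cells and a HIF-1α peak, and NR2F2 HIF-1β peaks in the same pools. NR2F6 had a HIF-1α peak 0.966 kb and a HIF-1β peak 0.173 kb upstream of its start in HIF-1α cells, and HIF-1β and HIF-2α peaks of HIF-2α cells 0.395 and 0.127 kb upstream. Several peaks lay nearer to the start of a neighbour than to that of the receptor: of POLD1 at NR1H2, of MADD at NR1H3 and of CATSPERZ or PRDX5 at ESRRA. The same held for some peaks at RXRA (MIR4669), NR2F2 (NR2F2-AS1), NR6A1 (OLFML2A), NR2F6 (OCEL1), NR2C2 and NR4A3.

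**Figure D5:**
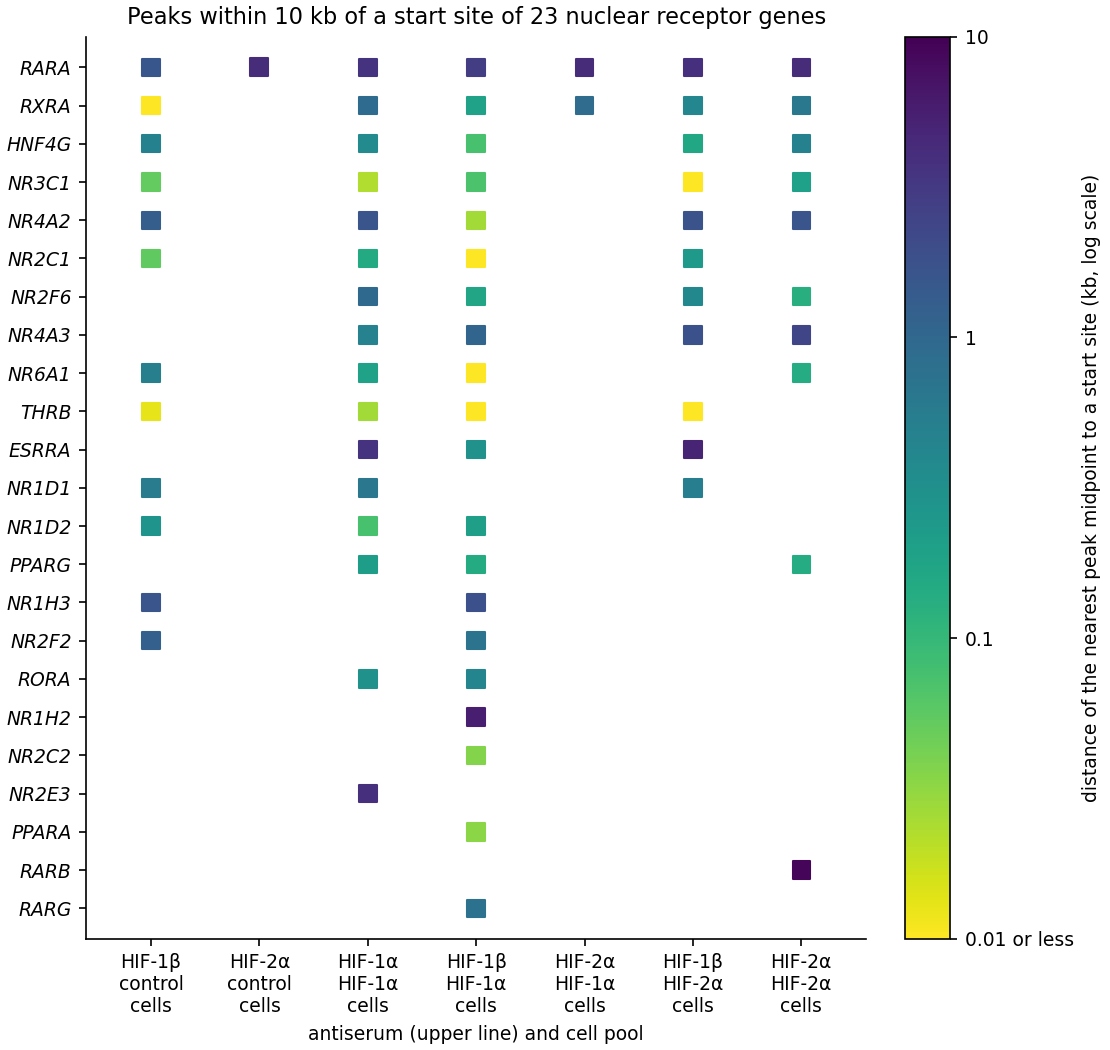
Peaks within 10 kb of an annotated start of 23 nuclear receptor genes (rows) in the 7 ChIP-seq lists (columns, antiserum and cell pool), coloured by the distance of the nearest peak midpoint in kb on a log scale. RARA has a peak in all 7 lists, and RORA in 2, those of HIF-1α and HIF-1β in HIF-1α re-expressing cells.

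Peaks and RNA were set side by side for the tested receptors. Of the 15 with a HIF-1α peak, 9 had a log2 fold change above 0 after HIF-1α re-expression, with a median of 0.07, and of the 16 without such a peak 14 did, with a median of 0.39. With the block these were 10 of 15 with a median of 0.17 and 13 of 16 with a median of 0.33. Over all genes the medians were 0.00 with and 0.05 without a HIF-1α peak. Of the 9 with a HIF-2α peak in overexpressing cells, 6 were above 0 after HIF-2α overexpression, with a median of 0.28, and of the 22 without one 7 were, with a median of -0.24. Over all genes 50.8% with such a peak (median 0.01) and 46.7% without one (median -0.03) were above 0. RORA was the one receptor called by edgeR with the block after HIF-1α re-expression that had a HIF-1α peak within 10 kb. PPARG, called in HIF-1α against HIF-2α cells, had a HIF-1α peak 0.22 kb from a start. A HIF-2α peak of overexpressing cells lay 0.144 kb from another PPARG start.

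The genes that work with these receptors were read from lists of their coactivators and corepressors, of genes that handle their ligands, and of their targets. Of 23 coregulators tested none was called by edgeR in any comparison, with or without the block, and at log2 fold changes with a median of 0.28 after HIF-1α re-expression. Among the 15 tested genes of ligand metabolism and transport, 3 of retinoid handling were higher in HIF-1α against HIF-2α cells with the block. Of all genes 4.54% were called higher in that comparison, and 5.93% in either direction. They were STRA6, the retinol importer, at a log2 fold change of 3.49 (edgeR with the block, adjusted p = 0.0219), and DHRS3 and CYP26B1, which lower retinal and retinoic acid, at 2.6 and 2.16 (adjusted p of 0.0237 and 0.0466). ALDH1A1, ALDH1A3, RDH10 and CRABP2, also of retinoid handling, were tested and not called. None of these 3 was called by edgeR against control cells in either pool. STRA6 was under 0.5 CPM in every library. Its counts were 14, 5 and 26 in HIF-1α, 5, 5 and 16 in control and 1, 0 and 2 in HIF-2α libraries. CYP26B1 had counts of 12, 21 and 135 in HIF-1α replicates 1 to 3, of 6, 11 and 13 in control and of 3, 6 and 14 in HIF-2α libraries. DHRS3 stood at 2.87, 17 and 98 CPM in HIF-1α, at 6.18, 11.7 and 36.2 CPM in control and at 0.241, 3.07 and 16.85 CPM in HIF-2α libraries.

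Of 29 tested targets that are no receptors themselves, 3 were higher and 4 lower in HIF-1α against HIF-2α cells with the block. Of all genes 4.54% were called higher and 1.38% lower in that fit. PER1, a glucocorticoid-induced clock gene, was higher at a log2 fold change of 2.12 (edgeR with the block, adjusted p = 0.0197), beside DHRS3 and CYP26B1, which are retinoic acid targets too. PLIN2, the lipid droplet coat protein and a PPAR target, was lower at -1.25 (edgeR with the block, adjusted p = 0.0274). It stood at 455, 574 and 417 CPM in HIF-1α and at 732, 1502 and 1229 CPM in HIF-2α cells. In control cells PLIN2 stood at 577, 458 and 436 CPM, and edgeR called it in neither comparison with control cells. CPT1A, also a PPAR target, SMPDL3A, a liver X receptor target, and CRY1, a target of the REV-ERB and ROR receptors, were lower at -1.34, -1.54 and -1.01 (edgeR with the block, adjusted p of 0.0481, 0.0452 and 0.045). LPCAT3, the phospholipid-remodelling target of the liver X receptors, fell by 1.09 (log2) in HIF-1α against control cells (edgeR with the block, adjusted p = 0.0329). Of the 29 targets it was the only 1 called there, where 2.55% of all genes were called lower. None of the list genes named here was called without the block.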

How the data were processed

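RNA-seq and ChIP-seq of 786-O pools were analysed from the authors' files. The deposited RNA-seq table holds counts, not normalized, for each gene symbol, which the authors made with Trim Galore 0.3.3, TopHat2 2.0.8b, Bowtie 1.0.0, SAMtools 0.1.19 and HTSeq 0.5.4p3 on GRCh37. For ChIP-seq they deposited peak windows, from reads aligned with BWA 0.7.5a-r405 and called with T-PIC together with MACS, without scores. No column of the count table was left out. The receptors and the lists of related genes were chosen with earlier results of these data known.

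Counts were tested with the quasi-likelihood test of edgeR 4.0.16 in R 4.3.3. The design held the 9 libraries with a term for the pool, after TMM scaling and filterByExpr, and p-values were Benjamini-Hochberg adjusted with a threshold of 0.05. Alternatives were a replicate block, DESeq2 1.42.0, RLE factors, no filter, only the pools compared, and leaving out each library. The scripts were tested on simulated data. The numbers pair the libraries: after subtraction of pool means, the 9 same-number pairs from different pools correlated at 0.377 to 0.65 across genes and the 18 different-number pairs at -0.451 to 0.0205, so block values are given beside the results they change. Libraries of a pool differed beyond sampling noise.

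Start sites and exons came from GENCODE v44 lifted to GRCh37, in which all 46 genes were found and 1405 of the 23441 symbols were not. A peak was assigned when its midpoint lay within 10 kb of any start (alternatives 5 kb, 50 kb, coding starts, 1 start per gene). Bases were read with pysam 0.24.0 in Python 3.11.15, and figures drawn with matplotlib 3.10.9. Genes named are RORA, every receptor past the threshold with or without the block or with a peak within 10 kb, the 10 highest per kb, and list genes past the threshold. Other receptors (such as THRA, PPARD and ESRRG) and MRPS25 were added after their values were seen. The result of 1 listed gene is not reported here.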

Additional observations from a re-analysis of the deposited data

Results flagged for a closer look

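NR0B1 lay on opposite sides of the control cells in the HIF-1α and HIF-2α pools: each HIF-1α library was above the control library of the same number and each HIF-2α library below it. The difference itself was tested, with a log2 fold change between HIF-1α and HIF-2α cells of 4.23 (edgeR with the replicate block, adjusted p = 0.00371, and 0.0601 without the block), for a gene that entered the test through its reads in the HIF-1α libraries. THRB showed the same pattern in all 3 pairs. It stood at 29.7, 33.2 and 44.5 CPM in HIF-1α, 22.4, 28.4 and 16.1 in control and 20.2, 24.9 and 11.7 in HIF-2α libraries. Its difference of 0.99 missed the threshold (edgeR with the block, adjusted p = 0.0853). DESeq2 called that THRB difference with the block (adjusted p = 0.0213) and not without it (0.159).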

How the results depend on the processing

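The number of receptors called depended on the model. After HIF-1α re-expression it was 0 with edgeR, 3 with the replicate block, 1 with DESeq2 and 9 with DESeq2 and the block. After HIF-2α overexpression it was 0 in all of these but DESeq2 with the block, which called 1 (NR0B1). Between HIF-1α and HIF-2α cells it was 0, 4, 4 and 8, and 1 (NR0B1) without a filter on low counts. The block changed no other call of a receptor by edgeR. When 1 library was left out with the block, 0 to 3 receptors were called after HIF-1α re-expression and 1 to 4 between HIF-1α and HIF-2α cells; NR0B1 was called in each of the latter. The call of RORA after HIF-1α re-expression was lost without HIF-1α replicate 2 or 3, HIF-2α replicate 1 or control replicate 2 or 3, and that against HIF-2α cells without HIF-1α replicate 2 or HIF-2α replicate 2 or 3. The cause of these losses was not tested, and each such fit holds fewer samples. In fits that left out 1 library, the log2 fold change of PPARG ranged from -0.65 to 1.02 after HIF-1α re-expression, below 0 without HIF-1α replicate 1 (-0.65), control replicate 2 (-0.25) or control replicate 3 (-0.25), and from -1.42 to 0.13 after HIF-2α overexpression, above 0 without control replicate 1. That of THRA after HIF-2α overexpression with the block ranged from -0.46 to 0.18, above 0 without HIF-2α replicate 3. None of these was called. The receptors with a HIF-1α peak numbered 13 to 23 of the 46 under other distances or start sites, where 30.2% to 50.6% of all tested and placed genes had one. Those with a HIF-2α peak in control cells numbered 3 within 50 kb (12.1% of all genes) and 1 otherwise. At these depths RORA and NR0B1 rest on few reads outside the HIF-1α cells.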
